A study of Homo sapiens with 36 samples.

Results

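Nonsense-mediated decay is the pathway that destroys messenger RNAs on which translation ends too early, and the 9 genes described here encode its core SMG and UPF proteins: SMG1, SMG5, SMG6, SMG8, SMG9, UPF1, UPF2, UPF3A and UPF3B. They were taken by gene identity, as the 9 listed SMG and UPF genes among the 61544 genes of the count table, without use of their values, and all 9 passed the filter on low counts that left 20767 genes. The measurement was sequencing of polyadenylated RNA from MIA PaCa-2, an established human pancreatic carcinoma line, in which dox (doxycycline) switches on Cas9 beside 1 of 3 guides. The PELO and HBS1L lines carry a guide against the named gene, and the NTC line carries the control guide. Each line was grown with 2 µg/mL dox or without dox, for 48 h or 96 h, with 3 libraries in each of the 12 groups and 36 in all. Every group shares the inducible Cas9, the parental line and medium with serum free of tetracycline, and the study set out to see what loss of either gene does in cells whose SKI complex is unstable.

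UPF1 is an RNA helicase that is phosphorylated on faulty messengers by the kinase SMG1, which SMG8 and SMG9 bind and hold in check. UPF2 joins UPF1 to UPF3A or UPF3B, the proteins that touch the exon junction complex left behind by splicing. SMG6 cuts the messenger near the stop codon, and SMG5 helps to bring in the enzymes that remove the tail and cap. In human cells the messengers of several of these factors, among them SMG5, SMG1, UPF1, UPF2 and UPF3B, are known to be targets of the pathway themselves, so that their levels are used as a reading of it. PELO and HBS1L act elsewhere: together they release ribosomes that have stalled on a messenger, and the SKI complex hands such messengers to the RNA exosome.

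On GRCh38, with exons from GENCODE 29, SMG1 spans chr16:18804853-18926454 (- strand, 63 exons in its main transcript), SMG5 chr1:156249224-156282825 (- strand, 22 exons), SMG6 chr17:2059839-2303771 (- strand, 19 exons) and SMG8 chr17:59209400-59215247 (+ strand, 5 exons). SMG9 spans chr19:43727992-43754990 (- strand, 14 exons), UPF1 chr19:18831938-18868236 (+ strand, 24 exons) and UPF2 chr10:11920022-12043170 (- strand, 21 exons). The paralogues UPF3A and UPF3B lie apart, at chr13:114281584-114305817 (+ strand, 10 exons) and chrX:119805311-119852998 (- strand, 11 exons). Values are per gene, over all exons, and do not separate isoforms.

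The libraries held total counts of 45.4 to 107.4 (in units of 1e6 counts; median 55.2), and PELO 96 h dox replicate 2 was the only one above 66.7. Levels are in CPM, the read count scaled to 1e6 counts of a library after scaling for composition, as mean ± SD with n = 3 libraries. HBS1L messenger RNA was 36.2 ± 0.899 CPM with dox and 105.2 ± 1.75 CPM without dox in the HBS1L line at 48 h, and 33.8 ± 0.332 CPM against 110.7 ± 1.98 CPM at 96 h. PELO messenger RNA was 20.7 ± 0.404 CPM with dox and 25.2 ± 1.33 CPM without dox in the PELO line after 48 h, and 28.3 ± 1.46 CPM against 29.1 ± 1.99 CPM after 96 h, so its level does not check the PELO knockout. KRT8 ranged from 720 to 2020 CPM and VIM from 7090 to 8950 CPM, while EPCAM and CDH1 had at most 2 and 3 counts in a library. CDKN2A and MTAP, which MIA PaCa-2 is known to lack, had at most 1 and 2 counts. Of the defining markers of other cell types, PTPRC, CD3E, DCN, LUM and PECAM1 had at most 3 counts. COL1A2, ENG and CDH5 were expressed, at medians of 172, 62.9 and 16.6 CPM. Among the 36 libraries 2 stood apart, measured by the SD of log2 CPM about the group mean over 11710 genes. PELO 48 h dox replicate 1 had an SD of 0.112 (median at that time 0.066, second highest 0.098), and PELO 96 h no dox replicate 3 had 0.138 (median 0.0725, second highest 0.098). In the first of them long genes read high, the longest 10% of genes lying 0.16 above the shortest 10% on the log2 scale, and in the other they read low, at -0.13. The same measure was -0.19 in PELO 48 h no dox replicate 3, opposite in sign to dox replicate 1 of that comparison, and -0.13 in PELO 96 h dox replicate 1; the part of this lean in the results was not tested. The labels do not say whether a line is 1 clone or a pool, or whether replicate libraries come from separate cultures; the p-values rest on the spread among libraries, which may be technical. The library numbers of 48 h and 96 h form separate blocks, so time and batch cannot be told apart.

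In the PELO line dox raised most of the SMG and UPF genes. The response beyond the control line, which is the log2 change with dox in the PELO line minus that in the NTC line, was upward for 8 of 9 genes at 48 h, where 22.9% of all genes tested were called higher. At 96 h it was upward for 7 of 9, where 28.7% of all genes were called higher. SMG5, SMG9 and UPF3B were among the 4 largest values at both times, joined by SMG1 at 48 h and UPF3A at 96 h, and SMG8 passed the test at neither time. A gene is called at an adjusted p under 0.05, by edgeR's quasi-likelihood test with Benjamini-Hochberg adjustment over the 20767 genes. The median of the 9 genes was 0.66 at 48 h and 0.50 at 96 h, beside -0.040 and 0.018 over all genes tested. The same 7 genes had a response called upward at both times. For UPF2 at 96 h the change within the PELO line alone did not pass (0.17 ± 0.09, adjusted p = 0.115). UPF1 had an upward call at 48 h only, although the difference between the times did not pass the test for it (log2 difference -0.11 ± 0.12, adjusted p = 0.586).

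**Figure D1:**
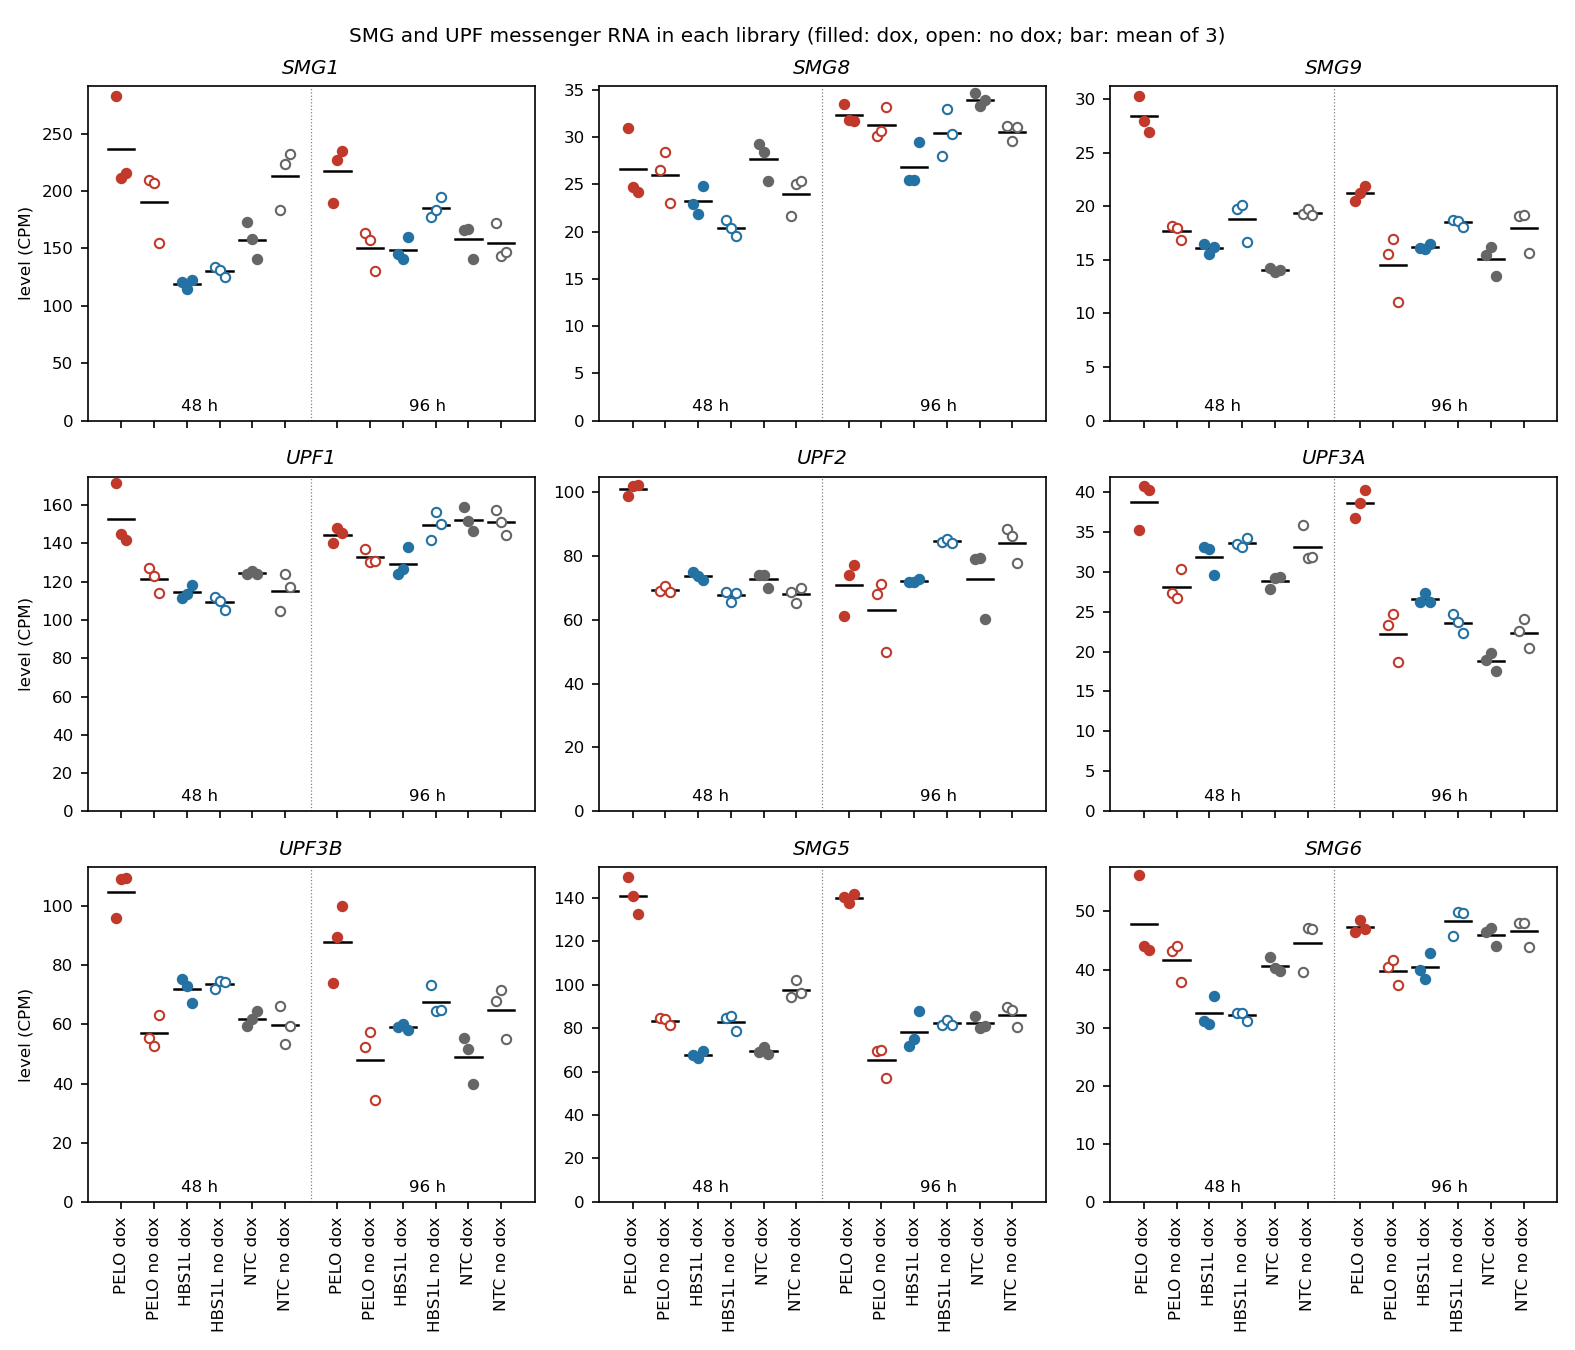
Level of each of the 9 genes in every library (y axis, CPM, from 0) by group (x axis: the PELO, HBS1L and NTC lines with dox beside without dox, at 48 h and then 96 h). Points are libraries and bars are means of 3; SMG5 lies between 132.5 and 149.5 CPM in the 6 PELO dox libraries and at or below 102.4 CPM in the other 30.

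SMG5, the decay adaptor, showed the clearest separation. At 48 h it read 149.5, 141.1 and 132.5 CPM in the 3 PELO dox libraries, against 84.8, 84.4 and 81.4 CPM without dox. In the NTC line it went the other way, with 69.2, 71.4 and 68.3 CPM with dox against 94.5, 102.4 and 96.2 CPM without dox. Neither pair of groups overlapped, and the response beyond the control line was 1.24 ± 0.09 on the log2 scale (2.37-fold, adjusted p = 1.64e-14). Within the PELO line alone the change was 0.76 ± 0.06 (1.69-fold), so the fall in the NTC line, -0.49 ± 0.06, makes up the rest. At 96 h SMG5 read 140.5, 137.9 and 141.8 CPM in PELO dox libraries, against 69.6, 69.8 and 57.0 CPM without dox. The NTC line then overlapped between 85.5, 79.9 and 81.1 CPM with dox and 89.6, 88.3 and 80.8 CPM without dox. The response was again near this size, at 1.17 ± 0.09 (2.25-fold, adjusted p = 4.41e-14).

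SMG6, the endonuclease, rose less. It read 56.3, 44.1 and 43.3 CPM in PELO dox libraries at 48 h, against 43.2, 44.1 and 37.9 CPM without dox, and the groups overlapped. NTC libraries held 40.7 ± 1.29 CPM with dox and 44.6 ± 4.34 CPM without dox. The response beyond the control line was 0.33 ± 0.11 (adjusted p = 0.0111) at 48 h. It was 0.27 ± 0.11 (adjusted p = 0.0301) at 96 h, where PELO libraries held 47.4 ± 1.07 CPM with dox and 39.8 ± 2.20 CPM without dox. Without PELO 48 h dox replicate 1 the 48 h value was 0.20 and no longer passed (adjusted p = 0.0816). The 96 h call ended without any 1 of 8 libraries, at 0.21 to 0.26 (adjusted p = 0.0507 to 0.115): NTC no dox replicates 1 and 2, NTC dox replicates 1 and 3, PELO no dox replicates 1 and 3, and PELO dox replicates 2 and 3. It also ended with library totals or in limma on the log2 table (adjusted p = 0.0877 and 0.0722). Exons of other genes, HIC1 and SRR among them, cover 25.4% of the exonic length of SMG6, and whether the counting used strand is not given in the sources used here, so its level is less certain.

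The kinase SMG1 read 283.1, 211.0 and 215.9 CPM in PELO dox libraries at 48 h, against 209.8, 207.3 and 154.9 CPM without dox. Replicate 1 with dox and replicate 3 without dox set the distance between these groups, and the lowest dox value lies just above the highest without dox. In the NTC line SMG1 was 157.3 ± 16.2 CPM with dox and 213.1 ± 26.0 CPM without dox, with no overlap. The response beyond the control line was 0.75 ± 0.18 (1.68-fold, adjusted p = 8.42e-04), made up of 0.31 ± 0.12 in the PELO line and -0.44 ± 0.12 in the NTC line. Without PELO dox replicate 1 the change within the PELO line was 0.16 (adjusted p = 0.320), and without PELO no dox replicate 3 it was 0.18 (adjusted p = 0.257), so that call rests on both. At 96 h SMG1 read 189.6, 227.0 and 235.2 CPM in PELO dox libraries, against 163.3, 157.0 and 130.6 CPM without dox, and these did not overlap. The response beyond the control line was 0.50 ± 0.18 (adjusted p = 0.0176). It no longer passed without NTC no dox replicate 1, NTC dox replicate 3, PELO no dox replicate 3 or PELO dox replicate 3, at 0.39 to 0.42 (adjusted p = 0.0608 to 0.0738).

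SMG8 and SMG9, the partners that restrain SMG1, differed from each other. SMG9 read 30.3, 27.98 and 26.9 CPM in PELO dox libraries at 48 h, against 18.1, 17.96 and 16.8 CPM without dox. NTC libraries held 14.1 ± 0.209 CPM with dox and 19.4 ± 0.312 CPM without dox. The PELO dox libraries were the highest of all, and the response beyond the control line was 1.15 ± 0.13 (2.22-fold, adjusted p = 4.21e-09). At 96 h SMG9 read 20.5, 21.2 and 21.8 CPM in PELO dox libraries, against 15.5, 16.9 and 11.1 CPM without dox, a response of 0.81 ± 0.13 (1.75-fold, adjusted p = 2.34e-06). SMG8 overlapped between PELO dox libraries at 30.9, 24.8 and 24.2 CPM and no dox libraries at 26.5, 28.5 and 23.1 CPM at 48 h. Its responses were -0.17 ± 0.12 at 48 h (adjusted p = 0.238) and -0.10 ± 0.11 at 96 h (adjusted p = 0.457). Without PELO 48 h dox replicate 1 the 48 h value of SMG8 was -0.29 and passed the test (adjusted p = 0.0241).

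UPF1, the helicase, had a small response. It read 171.6, 145.2 and 141.6 CPM in PELO dox libraries at 48 h, against 127.2, 123.1 and 114.3 CPM without dox. These groups did not overlap, and the change within the line was 0.33 ± 0.06 (adjusted p = 1.14e-05). Beyond the control line it was 0.22 ± 0.08 at 48 h (1.16-fold, adjusted p = 0.0270) and 0.11 ± 0.08 at 96 h (adjusted p = 0.259). The 48 h call ended without any 1 of 5 libraries, at 0.13 to 0.21 (adjusted p = 0.0529 to 0.178): PELO dox replicate 1, PELO no dox replicate 3, NTC dox replicate 1, and NTC no dox replicates 2 and 3. It also ended with library totals as the only scaling, at 0.17 (adjusted p = 0.122), and with no filter on low counts, at 0.19 (adjusted p = 0.0539).

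UPF2, the bridge between UPF1 and the UPF3 proteins, was tight at 48 h. It read 98.9, 102.0 and 102.3 CPM in PELO dox libraries, against 69.1, 70.5 and 68.8 CPM without dox, while NTC libraries held 72.7 ± 2.34 CPM with dox and 68.0 ± 2.35 CPM without dox. The response beyond the control line was 0.44 ± 0.13 (1.36-fold, adjusted p = 0.00614). At 96 h the groups overlapped, with 61.1, 74.1 and 77.1 CPM in PELO dox libraries against 68.1, 71.4 and 49.9 CPM without dox. Within the PELO line the 96 h change was 0.17 ± 0.09 (adjusted p = 0.115), and beyond the control line it was 0.38 ± 0.13 (adjusted p = 0.0167). That call ended without PELO no dox replicate 3, PELO dox replicate 2 or 3, NTC no dox replicate 1 or NTC dox replicate 3, at 0.21 to 0.32 (adjusted p = 0.0591 to 0.0923), and with library totals or in a fit of that time alone (adjusted p = 0.0627 and 0.108).

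UPF3A and UPF3B, paralogues that contact the exon junction complex, both rose. UPF3B read 95.9, 109.2 and 109.4 CPM in PELO dox libraries at 48 h, against 55.6, 52.8 and 63.2 CPM without dox. NTC libraries overlapped, at 62.0 ± 2.60 CPM with dox and 59.7 ± 6.32 CPM without dox, and the response was 0.82 ± 0.20 (1.76-fold, adjusted p = 0.00121). At 96 h UPF3B read 73.9, 89.5 and 99.96 CPM in PELO dox libraries, against 52.5, 57.3 and 34.6 CPM without dox. Its response there, 1.27 ± 0.20 (2.42-fold, adjusted p = 4.64e-06), joins a change of 0.87 ± 0.14 in the PELO line to one of -0.40 ± 0.14 in the NTC line that did not pass the test by itself (adjusted p = 0.0789). UPF3A read 35.2, 40.7 and 40.2 CPM in PELO dox libraries at 48 h, against 27.4, 26.7 and 30.3 CPM without dox, a response of 0.66 ± 0.10 (1.58-fold, adjusted p = 1.73e-06). At 96 h it read 36.8, 38.7 and 40.2 CPM in PELO dox libraries, against 23.3, 24.7 and 18.7 CPM without dox. NTC libraries at 96 h held 18.8 ± 1.17 CPM with dox and 22.4 ± 1.80 CPM without dox, with no overlap. The UPF3A response was then 1.05 ± 0.11 (2.06-fold, adjusted p = 1.34e-10). No single library left out ended the PELO responses of SMG5, SMG9, UPF3A or UPF3B beyond the control line.

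**Figure D2:**
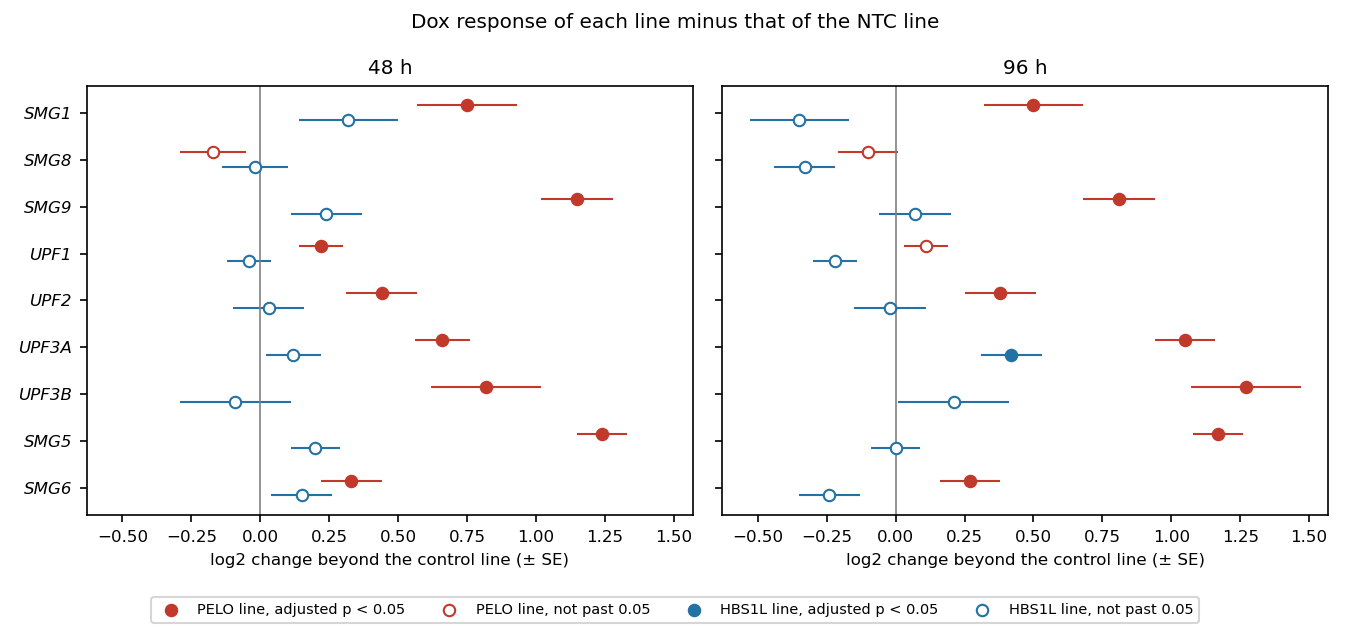
Log2 change with dox beyond the control line (x axis, ± SE) for each of the 9 genes (y axis) in the PELO and HBS1L lines at 48 h and 96 h; filled points have an adjusted p under 0.05. SMG5 lies at 1.24 and 1.17 in the PELO line and at 0.20 at 48 h in the HBS1L line, where only UPF3A at 96 h is filled.

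Within the PELO line alone, 8 of 9 genes rose with dox at 48 h (24.2% of all genes) and 6 of 9 at 96 h (34.4% of all genes). All 3 dox libraries lay above all 3 without dox for 7 of 9 genes at each time, beside 25.7% of all genes at 48 h and 34.8% at 96 h. The exceptions were SMG6 and SMG8 at 48 h, and SMG8 and UPF2 at 96 h. The rises at 96 h had sizes that many genes reached in this line: 7.47% of all genes had a larger change than SMG5 (1.10 ± 0.06), and 35.0% a larger one than SMG6 (0.25 ± 0.08). The calls within the line at 48 h also ended for SMG1 with library totals, with no filter or in a fit of that time alone (adjusted p = 0.0591 to 0.143), and for SMG6 with library totals, in a fit of that time alone or in limma on the log2 table (adjusted p = 0.0570 to 0.158). The SMG6 call at 48 h ended too without PELO dox replicate 1 (0.07, adjusted p = 0.478) or PELO no dox replicate 3 (0.13, adjusted p = 0.189). The 96 h call of SMG6 within the line ended with library totals (adjusted p = 0.0863).

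**Figure D3:**
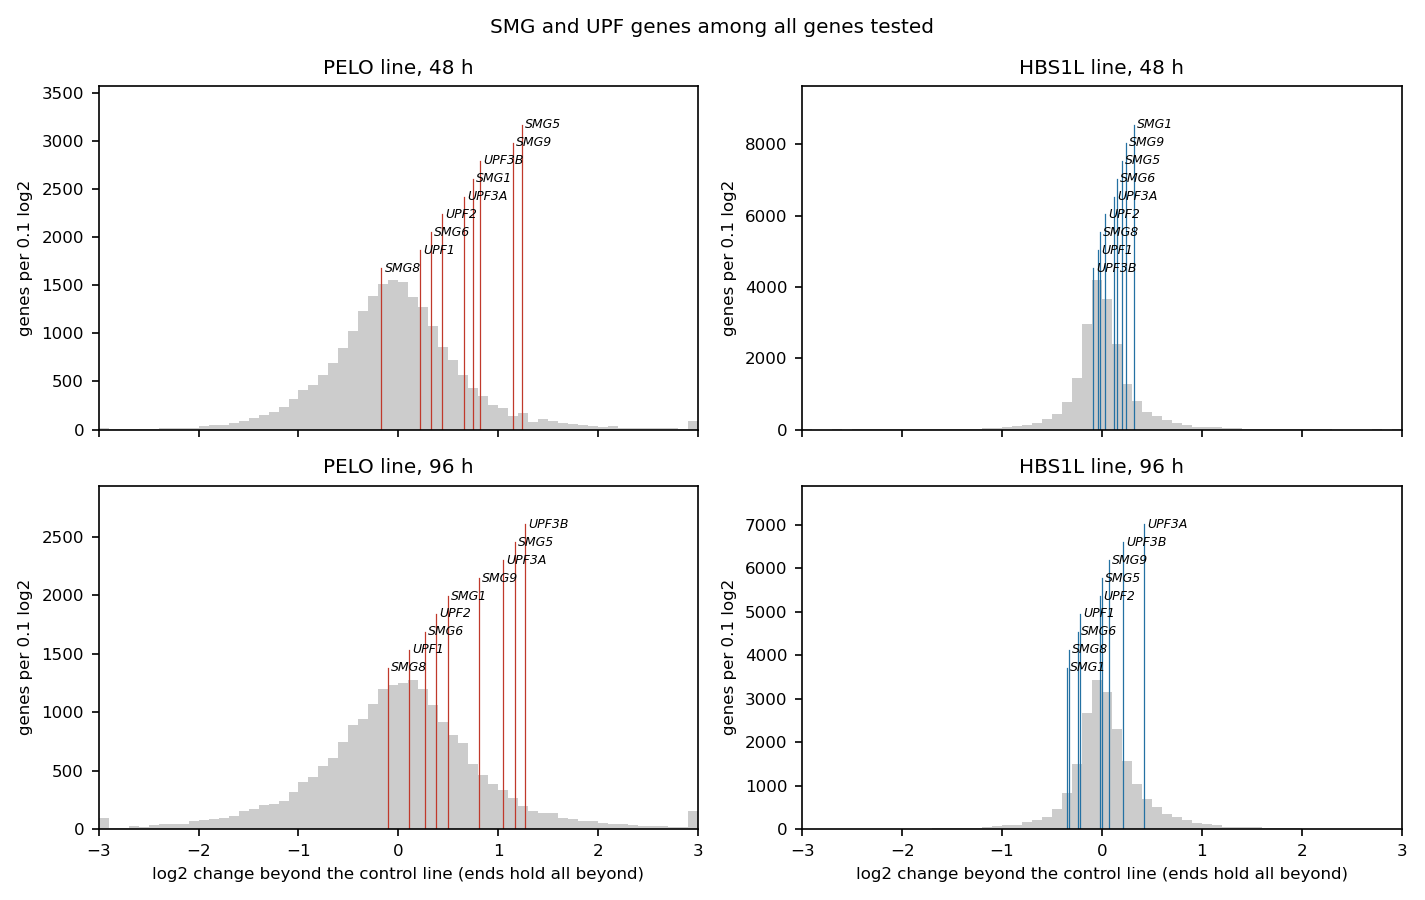
Number of genes (y axis) by log2 change beyond the control line (x axis, bins of 0.1, end bins holding all values beyond) for the 20767 genes tested, with a line at each of the 9 genes. In the PELO line at 48 h, SMG5 has a larger value than all but 3.97% of genes and 59.5% of genes have a larger value than SMG8; in the HBS1L line the 9 genes lie between -0.09 and 0.32 at 48 h and between -0.35 and 0.42 at 96 h.

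The stretches just before the starts of SMG5, SMG9, UPF3A and UPF3B, the 4 genes with the largest responses at 96 h, are shown to let their sequence be compared. At 48 h SMG1 had a larger response than UPF3A. RefSeq windows on GRCh38.p14 were at hand for 8 of the 9 genes, all but SMG8. Capitals mark TCGCGAGA, searched on both strands, which was chosen after these windows were read and whose longer form TCTCGCGAGA is known to bind the factor BANP. The 250 bases before each start, written 5′ to 3′ on the strand of the gene, are chr1:156282826-156283075 (- strand) for SMG5, chr19:43754963-43755212 (- strand) for SMG9, chr13:114281351-114281600 (+ strand) for UPF3A and chrX:119852964-119853213 (- strand) for UPF3B.
SMG5: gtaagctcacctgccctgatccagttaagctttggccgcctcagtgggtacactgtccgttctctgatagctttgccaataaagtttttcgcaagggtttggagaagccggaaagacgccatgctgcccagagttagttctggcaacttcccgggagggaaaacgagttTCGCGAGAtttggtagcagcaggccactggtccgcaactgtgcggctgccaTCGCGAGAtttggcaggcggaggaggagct
SMG9: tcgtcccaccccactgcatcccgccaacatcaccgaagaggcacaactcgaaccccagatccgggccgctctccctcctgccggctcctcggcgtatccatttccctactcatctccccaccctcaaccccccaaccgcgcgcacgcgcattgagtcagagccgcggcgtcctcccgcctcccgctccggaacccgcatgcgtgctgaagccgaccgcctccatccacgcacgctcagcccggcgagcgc
UPF3A: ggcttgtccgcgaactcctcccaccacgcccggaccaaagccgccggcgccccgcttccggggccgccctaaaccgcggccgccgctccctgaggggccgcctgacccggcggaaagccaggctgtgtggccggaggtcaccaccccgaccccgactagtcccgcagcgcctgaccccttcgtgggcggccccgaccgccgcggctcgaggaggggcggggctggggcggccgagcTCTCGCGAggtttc
UPF3B: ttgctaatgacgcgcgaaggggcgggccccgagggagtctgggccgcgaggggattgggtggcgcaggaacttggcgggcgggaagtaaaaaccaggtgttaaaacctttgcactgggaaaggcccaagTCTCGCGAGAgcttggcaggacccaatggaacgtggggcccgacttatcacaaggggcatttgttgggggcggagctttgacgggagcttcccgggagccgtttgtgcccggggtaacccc
SMG5 holds the motif at 81 and 30 bases before its start, UPF3A at 14 bases on the opposite strand, and UPF3B as both strands overlapped in 1 run at 121 bases, while SMG9 holds none. Over the whole RefSeq windows, from 250 bases before to 50 after the start, TCGCGAGA stood in 3 of the 8 SMG and UPF windows and in 1.15% of 35116 windows of that length. Because this motif was chosen after the 8 windows were read, these 2 shares cannot be weighed against each other. The GC content of the 8 windows ran from 59.7% (SMG5) to 78.3% (SMG6), beside a median of 58.7% over all windows. CACGTG stood in 1 of the 8, that of UPF2, and in 7.26% of all windows. TGATGNAA and TGACGTCA, the cores bound by ATF4 and CREB, stood in 0 of the 8 and in 3.62% and 1.85% of all. A match describes letters only, and whether a factor binds there was not measured.

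SMG1 has pseudogene copies, and its level and theirs can be confused when reads are assigned. Its 7 tested copies (SMG1P1 to SMG1P7) together held 119.2 ± 7.80 CPM with dox and 68.8 ± 4.59 CPM without dox in the PELO line at 48 h. At 96 h they held 113.9 ± 7.84 CPM with dox and 54.4 ± 11.0 CPM without dox. This was 50.4% of the SMG1 level with dox and 36.1% without dox at 48 h. In the NTC line the copies held 64.1 ± 2.17 CPM with dox and 71.0 ± 2.90 CPM without dox at 48 h. Among single copies SMG1P5 had PELO responses of 0.91 ± 0.09 at 48 h (adjusted p = 4.08e-11) and 1.16 ± 0.09 at 96 h (adjusted p = 3.47e-14), and SMG1P7 did not pass at either time. Adding the copies to their gene, for SMG1 and for UPF3A with its 3 copies, changed no call of the 9 genes in any comparison. This summing was chosen after the data had been seen.

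**Figure D4:**
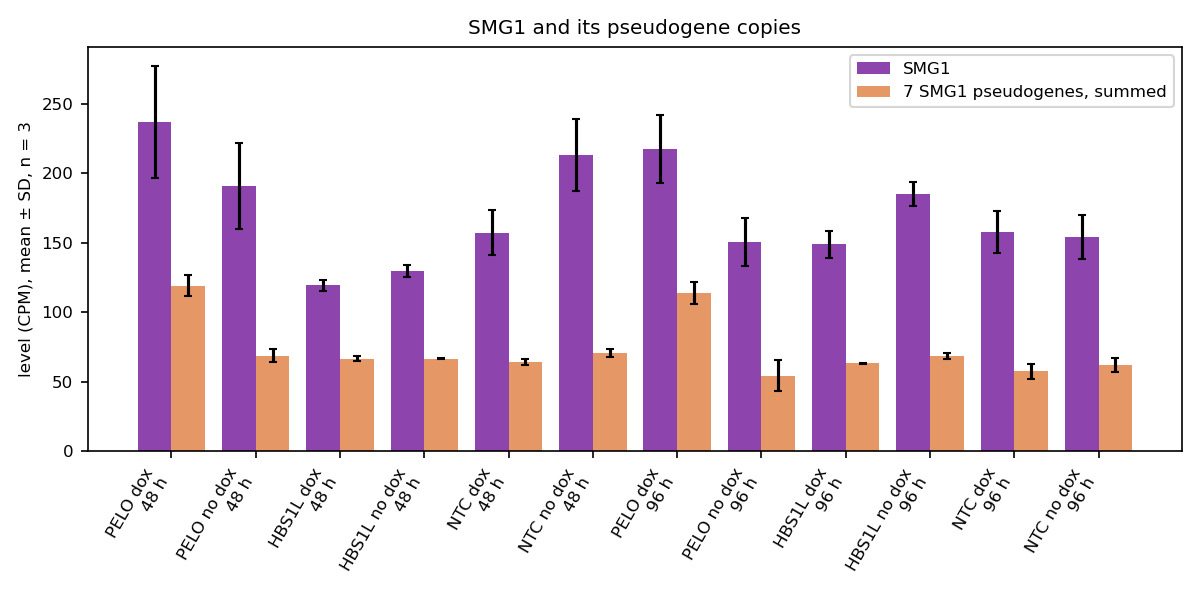
Mean level of SMG1 and summed level of its 7 pseudogene copies (y axis, CPM ± SD, n = 3 libraries) in each of the 12 groups (x axis). The copies stand at 119.2 and 113.9 CPM in the PELO line with dox and at or below 71.0 CPM in each of the other 10 groups.

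The HBS1L line responded less. Beyond the control line, which is the same NTC libraries as for PELO, 0 of 9 genes were called at 48 h by edgeR (3.85% of all genes) and 0 by DESeq2, and 1 of 9, SMG5, had an unadjusted p under 0.05. The 48 h values ran from -0.09 ± 0.20 for UPF3B to 0.32 ± 0.18 for SMG1. At 96 h 1 of 9 genes, UPF3A, was called (10.7% of all genes). It read 26.2, 27.3 and 26.2 CPM in HBS1L dox libraries, against 24.7, 23.7 and 22.4 CPM without dox, and its response was 0.42 ± 0.11 (1.34-fold, adjusted p = 0.00801). The change of UPF3A within the HBS1L line alone, 0.17 ± 0.07, did not pass (adjusted p = 0.102). SMG8, SMG6 and UPF1 had 96 h responses of -0.33 ± 0.11, -0.24 ± 0.11 and -0.22 ± 0.08, with adjusted p of 0.0533, 0.164 and 0.0820. SMG8 passed with DESeq2 (adjusted p = 0.0329) and with no filter (adjusted p = 0.00633), and SMG8, SMG6 and UPF1 passed in a fit of that time alone (adjusted p = 0.0126, 0.0341 and 0.0339). SMG8 and UPF1 also passed without HBS1L no dox replicate 1 or HBS1L dox replicate 3 (adjusted p = 0.0191 to 0.0451).

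Within the HBS1L line SMG5 fell with dox at 48 h, as 1 of 9 genes called (21.5% of all genes in either direction). It read 67.6, 66.2 and 69.6 CPM with dox, against 84.8, 85.6 and 78.7 CPM without dox, a change of -0.29 ± 0.06 (adjusted p = 4.83e-04). At 96 h SMG6 and UPF1 fell, 2 of 9 genes called (19.9% of all genes in either direction). SMG6 had a change of -0.26 ± 0.08 (adjusted p = 0.0134) and UPF1 one of -0.21 ± 0.06 (adjusted p = 0.00928). Either or both of these calls ended without HBS1L dox replicate 1 or 2 or HBS1L no dox replicate 2 or 3 (adjusted p = 0.0531 to 0.0758 for SMG6 and 0.0637 to 0.0674 for UPF1).

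Tested directly, the PELO response exceeded the HBS1L response for 7 of 9 genes at 48 h (21.9% of all genes) and for 8 of 9 at 96 h (29.1% of all genes). For UPF1 and UPF2 at 96 h no change was called within the PELO line alone. SMG5 had the largest such difference at both times, 1.05 ± 0.09 (adjusted p = 2.20e-12) and 1.17 ± 0.09 (adjusted p = 4.42e-14). SMG8 passed at neither time, with differences of -0.15 ± 0.12 and 0.23 ± 0.11 (adjusted p = 0.314 and 0.0853). The 96 h difference of SMG8 passed with no filter, in a fit of that time alone and without HBS1L dox replicate 3 (0.23 to 0.30, adjusted p = 0.0261 to 0.0311), and the 48 h one passed in the other direction without PELO dox replicate 1 (-0.27, adjusted p = 0.0396). With library totals as the only scaling, 4 of 9 passed at 48 h, and that scaling moved the median of all genes there to -0.125.

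The NTC line had its own changes with dox. At 48 h 5 of 9 genes were called (35.0% of all genes): SMG1, SMG5, SMG9 and UPF3A fell, by 0.44, 0.49, 0.46 and 0.20 on the log2 scale, and SMG8 rose by 0.21 ± 0.08 (adjusted p = 0.0480). The SMG8 and UPF3A calls are near the threshold. SMG8 no longer passed without NTC no dox replicate 1 or NTC dox replicate 1 or 2, and UPF3A without NTC no dox replicate 1 or any 1 NTC dox library (adjusted p = 0.0545 to 0.227 over both genes). SMG8 also did not pass with DESeq2 size factors, library totals, the replicate block, a fit of that time alone or limma (adjusted p = 0.0507 to 0.133), nor UPF3A with library totals (adjusted p = 0.0525). At 96 h UPF3A alone fell, 1 of 9 called (7.52% of all genes in either direction), with a change of -0.25 ± 0.08 (adjusted p = 0.0388). That call ended without NTC no dox replicate 1 or 2 or NTC dox replicate 1 or 3 (adjusted p = 0.0877 to 0.239), and in a fit of that time alone (adjusted p = 0.0710).

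Without dox the lines already differed. At 48 h SMG5 and UPF3A were lower in the PELO line than in the NTC line, 2 of 9 called (11.1% of all genes in either direction). Their changes were -0.23 ± 0.06 and -0.24 ± 0.07 (adjusted p = 0.0120 and 0.0319). The SMG5 call ended without NTC no dox replicate 2 or PELO no dox replicate 3 (adjusted p = 0.0822 and 0.0535), and that of UPF3A without NTC no dox replicate 1 or PELO no dox replicate 1 or 2 (adjusted p = 0.104 to 0.194). At 96 h 6 of 9 were called, all of them lower in the PELO line (21.8% of all genes were called, in either direction). UPF2 read 68.1, 71.4 and 49.9 CPM in the PELO line against 88.5, 86.3 and 77.9 CPM in the NTC line without dox (-0.42 ± 0.09, adjusted p = 0.00149). SMG5, SMG6, SMG9, UPF1 and UPF3B had changes of -0.40, -0.23, -0.31, -0.19 and -0.43. Without PELO no dox replicate 3, 2 of 9 passed, and without NTC no dox replicate 1 or 2, 2 and 3 passed. The UPF3B call ended with no filter (adjusted p = 0.0638), and those of UPF3B and SMG9 in a fit of that time alone (adjusted p = 0.120 and 0.0630). For these 6 genes a lower level without dox is part of the 96 h PELO response, while SMG1, SMG8 and UPF3A differed without dox by -0.04, 0.03 and -0.01 (adjusted p = 0.874, 0.827 and 0.959). With dox alone SMG5 was 140.1 ± 1.96 CPM in PELO dox libraries and 82.2 ± 2.97 CPM in NTC dox libraries, and UPF2 was 70.8 ± 8.53 CPM against 72.9 ± 11.0 CPM. In the HBS1L line without dox, SMG1, SMG5, SMG6 and SMG8 were lower than in the NTC line at 48 h. These were 4 of 9 called (37.9% of all genes in either direction). SMG1 was 130.0 ± 4.33 CPM against 213.1 ± 26.0 CPM (-0.71 ± 0.12, adjusted p = 5.61e-05). The SMG8 call ended without NTC no dox replicate 2 or 3 or HBS1L no dox replicate 2 or 3 (adjusted p = 0.0590 to 0.119). At 96 h 0 of 9 were called by edgeR (0.135% of all genes), 0 by DESeq2, and 1 of 9, SMG1, had an unadjusted p under 0.05.

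Between the times, 0 of 9 PELO responses beyond the control line differed (20.5% of all genes; 1 of 9 at an unadjusted p under 0.05; 0 by DESeq2). UPF3A had the largest upward difference relative to its error, 0.38 ± 0.15 (adjusted p = 0.0637), and SMG9 one of -0.35 ± 0.18 (adjusted p = 0.195). Leaving out PELO 96 h no dox replicate 3 brought SMG9 to -0.52 (adjusted p = 0.00543), and leaving out NTC 48 h no dox replicate 1, NTC 96 h no dox replicate 3 or PELO 96 h no dox replicate 2 brought UPF3A to 0.42 to 0.45 (adjusted p = 0.0273 to 0.0414). For HBS1L 0 of 9 differed between the times (3.07% of all genes; 2 of 9 at an unadjusted p under 0.05; 0 by DESeq2), with SMG1 at -0.66 ± 0.25 (adjusted p = 0.151).

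Other factors of the pathway moved unevenly beside the SMG and UPF genes. Of 18 other decay factors, 8 rose and 2 fell in the PELO response at 48 h, and 9 rose and 4 fell at 96 h, with medians of 0.09 and 0.14. Over all genes 22.9% were called higher and 24.9% lower at 48 h, and 28.7% higher and 26.0% lower at 96 h. DHX34, a helicase that assists UPF1, was 60.6 ± 4.36 CPM with dox and 36.4 ± 0.991 CPM without dox in the PELO line at 48 h, a response of 0.81 ± 0.08 (adjusted p = 1.53e-10). GNL2, a nucleolar GTPase, had 0.84 ± 0.05 and 1.01 ± 0.05. Relative to the control line, MOV10, an RNA helicase that interacts with UPF1, fell at both times, with responses of -0.27 and -0.47. STAU2 also fell at both times, with -0.24 and -0.37, and RUVBL2, an ATPase, fell at 96 h with -0.61 on the log2 scale. At 48 h MOV10 was 44.3 ± 3.03 CPM with dox and 46.3 ± 0.424 CPM without dox in the PELO line, and 53.1 ± 0.526 CPM with dox and 46.1 ± 1.69 CPM without dox in the NTC line.

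The exon junction complex genes moved less at 48 h, with 1 of 10 up (PYM1 at 0.16 ± 0.06, adjusted p = 0.0386) and 0 down. At 96 h 7 of 10 rose and 0 fell, among them RBM8A at 0.61 ± 0.06 and MAGOHB at 0.64 ± 0.10, both core subunits. Without dox at 96 h, 7 of the 10 were called lower and 0 higher in the PELO line than in the NTC line (median -0.22). RBM8A was then 103.6 ± 3.53 CPM against 126.8 ± 1.52 CPM, so a lower level without dox is part of its 96 h response. Of 18 genes with transcripts known as decay targets in human cells, 13 rose and 1 fell at 48 h. At 96 h 16 rose and 0 fell, and the medians were 0.98 and 0.99. Over all genes 22.9% were called higher and 24.9% lower at 48 h, and 28.7% higher and 26.0% lower at 96 h. Without dox at 96 h, 10 of the 18 targets were called lower and 3 higher in the PELO line than in the NTC line (median -0.25). Of all genes, 21.8% were called in that comparison, in either direction. The levels of the targets join all isoforms of a gene, so isoforms that are targets were not told apart from others. The list was chosen with earlier results of these data known. GADD45A, a stress gene, was 697.8 ± 53.3 CPM with dox and 76.8 ± 4.82 CPM without dox in the PELO line at 48 h. ZFAS1, a host transcript of small nucleolar RNAs, was 196.9 ± 14.7 CPM against 57.0 ± 5.40 CPM, and HNRNPD was the 1 with a lower response than the control line (-0.24 ± 0.06). HNRNPD was 482.8 ± 21.8 CPM with dox and 483.8 ± 20.7 CPM without dox in the PELO line, and 507.6 ± 17.0 CPM with dox and 432.2 ± 22.7 CPM without dox in the NTC line. In the HBS1L response the targets had 1 up and 1 down at 48 h and 7 up and 5 down at 96 h, where 1.41% and 2.44% of all genes were higher and lower at 48 h and 5.41% and 5.32% at 96 h. The other decay factors there had 0 called at 48 h (3 at an unadjusted p under 0.05) and 0 up and 3 down at 96 h.

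**Figure D5:**
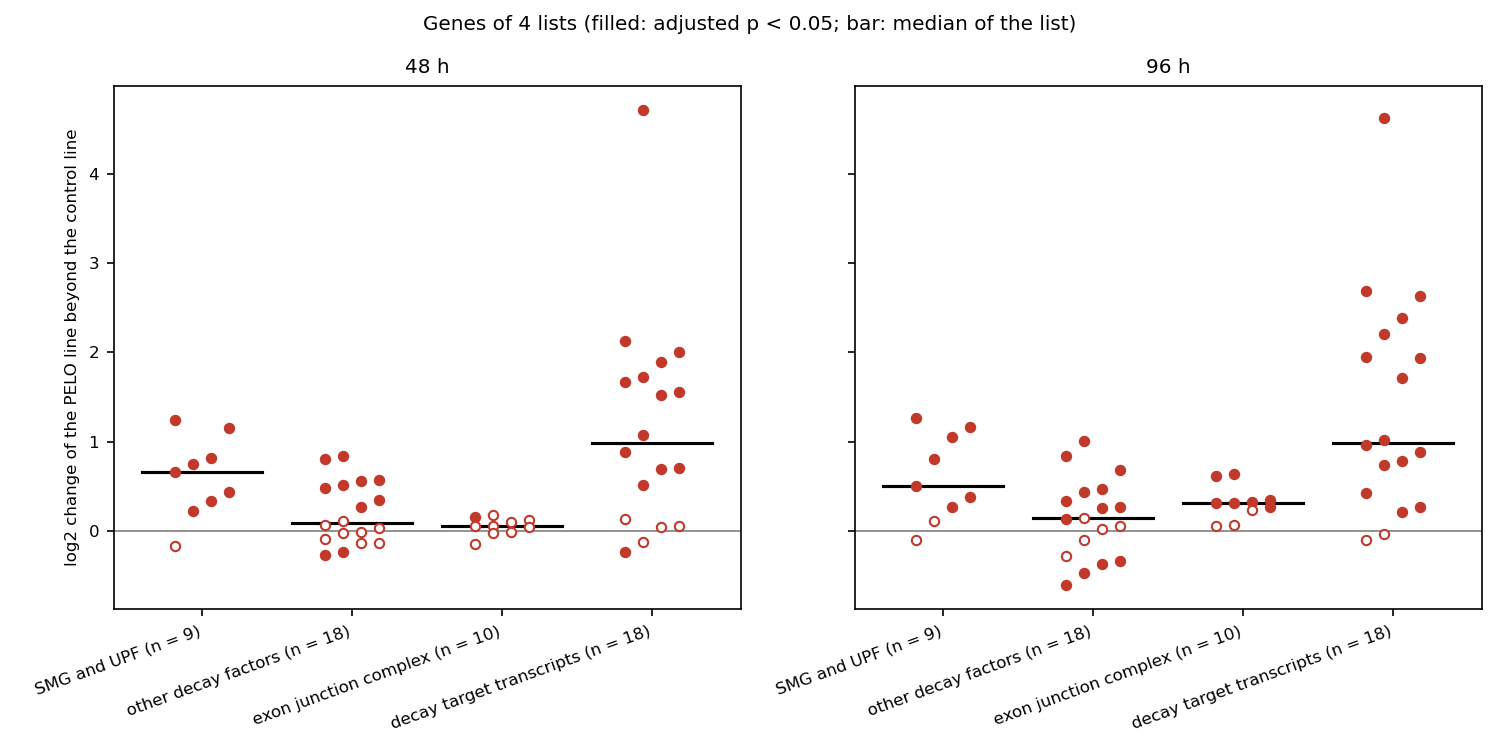
Log2 response of the PELO line beyond the control line (y axis) of each of the SMG and UPF genes, the other decay factors, the exon junction complex and the decay target transcripts (x axis), at 48 h and 96 h; filled points have an adjusted p under 0.05 and bars are medians. The median of the SMG and UPF genes is 0.66 and 0.50, that of the exon junction complex 0.05 and 0.31.

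Between genes, levels are compared as CPM per kb of exonic length. UPF3B was highest in 11 of the 12 groups and UPF1 in the NTC 96 h dox group, while SMG9 was lowest in all 12. In the PELO 96 h no dox group UPF3B and UPF1 lay within their spread, at 15.6 ± 3.9 and 15.4 ± 0.428. Their spreads also met in the NTC 96 h groups, at 15.9 ± 2.67 and 17.7 ± 0.74 with dox and 21.1 ± 2.82 and 17.6 ± 0.737 without dox. UPF3B and SMG5 lay within their spread in PELO 96 h dox (28.5 ± 4.26 and 26.4 ± 0.37) and NTC 48 h no dox (19.4 ± 2.05 and 18.4 ± 0.783). In the PELO line with dox at 48 h the level per kb was 34.0 ± 2.51 for UPF3B, 26.6 ± 1.60 for SMG5, 17.8 ± 1.90 for UPF1, 17.1 ± 0.314 for UPF2, 9.11 ± 1.55 for SMG1, 7.10 ± 0.998 for SMG8, 6.71 ± 0.532 for UPF3A, 4.54 ± 0.693 for SMG6 and 3.58 ± 0.215 for SMG9. Neighbours UPF1 and UPF2, SMG1 and SMG8, and SMG8 and UPF3A lay within their spread. In the NTC line with dox at 48 h the level per kb was 20.1 ± 0.844 for UPF3B, 14.5 ± 0.109 for UPF1, 13.1 ± 0.296 for SMG5 and 1.77 ± 0.0264 for SMG9, so SMG5 and UPF1 stand in the other order there. The exonic lengths used run from 3081 bases for UPF3B to 25988 for SMG1. They join all annotated exons of a gene, and the order with lengths of main transcripts was not tested. SMG9 combines a coding length of 1560 bases with a 3′ UTR of 3604.

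Likeness of pattern was measured as the root mean square difference between 12 centred group means of log2 CPM, over 9837 genes with a mean of at least 10 CPM. The 2 genes nearest to SMG5 were TSTD2 and DGKE, at 0.095 and 0.098, beside a spread of 0.35 of SMG5 about its own mean. UPF3B was nearest to NSRP1 and AKAP17A (0.105 and 0.110), and UPF3A to CEP95 and PMS2CL (0.104 and 0.111). SMG1 was nearest to MED13L and ZFHX3 (0.083 and 0.088), UPF2 to CNTROB and RBM25 (0.078 and 0.087), SMG6 to PDPK1 and KDM2A (0.047 and 0.048) and UPF1 to TOPORS and DDX24 (0.046 and 0.049). SMG8 had the smallest differences, 0.025 to CAND1 and 0.028 to AQR. The spread of a gene about its own mean ran from 0.17 for UPF1 to 0.35 for SMG5, and was 0.21 for SMG8. The closest SMG or UPF gene ranked between 51 for UPF3B (SMG9, at 0.17) and 342 for SMG1 (SMG6, at 0.18) among the 9837 genes. With so few SMG and UPF genes among them, a gene from outside was likely to come first, so these ranks do not show that the 9 are unlike.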

How the data were processed

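The tools named in the submitters' processing notes are DRAGEN, Subread, featureCounts, limma and edgeR, and the build there is GRCh38.p13; no source used here gives versions, options or the strand setting. The authors' deposited count table holds expected counts, fractional read counts per gene (45.6% of values above 0 were not whole). Their deposited log2 table holds log2 of the count plus 0.5, shifted by 1 constant per library (largest deviation 5.2e-14), for 17138 genes, and was used as an alternative only.

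Counts were rounded and fitted in R 4.3.3 with edgeR 4.0.16: filterByExpr (minimum count 10, minimum total 15; 20767 genes, no library keeping under 99.95% of its counts), TMM scaling, 1 mean per group over 36 libraries, robust quasi-likelihood F tests of contrasts, and Benjamini-Hochberg adjustment over all genes tested. SE is the log2 change divided by the square root of F. DESeq2 1.42.0 and limma 3.58.1 served as alternatives, together with other scalings, no filter, a replicate block, fits per time and each library left out. The procedure was tested on simulated data.

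The 9 genes were fixed by identity, and they and the further lists were chosen with earlier results of these data known. From each list, the 2 genes with the smallest adjusted p in each direction were named per time in the PELO response. The nearest patterns of SMG9 are not reported here. In 30 pairs of groups, same-numbered libraries did not deviate together throughout (0 pairs with every correlation over 0.1; range -0.21 to 0.2), so the replicate numbers were not taken as pairs. No 2 libraries of a group agreed within sampling noise.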

Additional observations from a re-analysis of the deposited data

Results flagged for a closer look

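The log2 responses to dox of the PELO and HBS1L lines were set against each other for each gene. In edgeR's test of the difference itself, 15 of the 18 differences passed an adjusted p of 0.05. Each gene is counted at both times, so the 18 differences are not from separate genes. All 15 were upward, beside 21.9% of all genes called higher at 48 h and 29.1% at 96 h. At 48 h the PELO response exceeded the HBS1L response by 0.44 for SMG1, 1.05 for SMG5, 0.91 for SMG9, 0.26 for UPF1, 0.42 for UPF2, 0.54 for UPF3A and 0.91 for UPF3B. The SMG1 difference is near the threshold (adjusted p = 0.0477), and it no longer passed without PELO dox replicate 1 or PELO no dox replicate 3 (0.29 and 0.30) or without any 1 of the 6 HBS1L libraries of that time (0.40 to 0.45), nor with library totals, no filter, the replicate block, a fit of that time alone or limma (0.33 to 0.46, adjusted p = 0.0568 to 0.166). The UPF1 difference did not pass without PELO dox replicate 1 (0.17, adjusted p = 0.0703), the library that stood apart at that time, or with library totals (0.16, adjusted p = 0.146). The UPF2 difference at 48 h did not pass with library totals (0.32) or no filter (0.39). At 96 h the differences were 0.85 for SMG1, 1.17 for SMG5, 0.51 for SMG6, 0.74 for SMG9, 0.33 for UPF1, 0.40 for UPF2, 0.62 for UPF3A and 1.06 for UPF3B. Some of these join a PELO change to a fall in the HBS1L line. Within the PELO line SMG6, UPF1 and UPF2 changed by 0.25, 0.12 and 0.17, and only SMG6 was called. Within the HBS1L line they changed by -0.26, -0.21 and -0.23, and SMG6 and UPF1 were called. The UPF2 difference did not pass without PELO no dox replicate 3 (0.23, adjusted p = 0.0587) or PELO dox replicate 3 (0.31, adjusted p = 0.0552), nor with library totals (0.34) or in a fit of that time alone (0.39). Each comparison holds both lines at 3 libraries per group, and the level of PELO messenger RNA does not show how complete its knockout was.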

How the results depend on the processing

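No direction of any of the 9 genes that was called turned round under an alternative. Across 162 gene and comparison pairs, the side of the threshold was kept for 161 with DESeq2 size factors, 157 with the DESeq2 test, 149 with library totals alone, 158 with limma on the log2 table, 149 with no filter and 157 with the replicate block, and for 125 of 144 with fits per time. Counts of the 9 genes called moved as follows, with no cause tested. HBS1L dox against no dox at 48 h had 1, but 2 with library totals, DESeq2 or the replicate block and 3 with no filter or the fit per time. At 96 h it had 2, but 4 with DESeq2 or the fit per time. The HBS1L response beyond the control line at 96 h had 1, but 2 with DESeq2 or no filter and 4 with the fit per time. NTC dox against no dox had 5 at 48 h but 3 with library totals, and 1 at 96 h but 2 with DESeq2, no filter or the replicate block and 0 with the fit per time (851 genes of all called, against 1561). The PELO minus HBS1L response at 48 h had 7 but 4 with library totals, and the change of the PELO response between times had 0 but 1 (UPF3A) with no filter or the replicate block. The HBS1L line against the NTC line without dox at 96 h had 28 of all genes called, but 46 with DESeq2, 95 with no filter and 12 with the fit per time.

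With 1 library left out, the number of the 9 genes called ranged from 4 to 7 for the PELO response beyond the control line at 96 h, 1 to 3 for that of HBS1L at 96 h, 1 to 2 for HBS1L dox at 48 h and 0 to 3 at 96 h. They ranged from 3 to 6 for NTC dox at 48 h and 0 to 3 at 96 h, from 1 to 2 and 2 to 6 for the PELO line against the NTC line without dox at 48 h and 96 h, and from 0 to 1 for the change of the PELO response between times. Counts over all genes ranged from 484 to 823 and 1391 to 2421 for the HBS1L response at 48 h and 96 h, 481 to 2141 for NTC dox at 96 h, 12 to 42 for the HBS1L line without dox at 96 h, and 290 to 798 for the change of the HBS1L response between times. The replicate numbers share only a number, so the replicate block is no better estimate. The lowest level of any of the 9 genes in any library was 11.1 CPM, for SMG9, and the SE of the log2 changes ran from 0.06 to 0.28.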
